A study of Homo sapiens with 4 samples.

Results

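The 10 genes described here are chaperones and quality-control genes of the endoplasmic reticulum (ER), the compartment in which secreted and membrane proteins are folded. They were chosen by gene symbol: the chaperones HSPA5 and HSP90B1, the co-chaperones SDF2L1 and DNAJB9, the stress sensors ERN1 and ATF6 with the transcription factor XBP1, and the ER-associated degradation genes EDEM1, SEL1L and HERPUD1. All 10 were found among 27106 genes of the count matrix and all 10 were among the 19398 tested. Total RNA was sequenced from THP-1 cells, a human monocytic leukaemia line. One group of 2 libraries had received a non-targeting antisense oligonucleotide (ASO), a synthetic oligomer designed to pair with a chosen RNA, and the other group of 2 libraries an ASO against the long noncoding RNA SGOL1-AS1. All 4 libraries are labelled day 5, both groups carry a transfected oligonucleotide, and the labels hold neither an untransfected group nor a second ASO against the target. The labels do not say whether the 2 libraries of a group are separate cultures, so the spread between these libraries may be technical. The limma p-values rest on that spread, taken mostly from all genes of similar level and less from each gene's own 4 values (22.2 total degrees of freedom).

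When unfolded proteins build up in the ER, 3 sensors in its membrane start the unfolded protein response. IRE1, the product of ERN1, cuts the XBP1 mRNA, which the ligase RTCB rejoins into the form that encodes an active transcription factor. ATF6 moves to the Golgi, where proteases release its transcription factor part, and PERK slows translation and lets ATF4 be made. The targets of XBP1 and ATF6 include chaperones and the degradation machinery, which carries misfolded proteins back to the cytosol for the proteasome. Secretory cells of the myeloid and lymphoid lineages rely on this pathway.

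The libraries held 41435922 to 51851314 gene reads each. The columns of the knockdown group carry a code that no label explains. They were assigned by elimination, numbered in column order, and every direction below rests on that assignment. The target itself, listed under its current symbol SGO1-AS1, had 23.0 and 19.8 normalized reads in the non-targeting libraries against 11.5 and 19.4 with the targeting ASO (limma, log2 fold change -0.48 ± 0.37 SE, adjusted p = 0.555), too few to check the labels. Over all genes tested, 660 were lower and 165 higher in the knockdown (limma, adjusted p under 0.05), so lower genes made up 80.0% of the calls. Scaling the libraries to a common median, by quantiles or to a common total made that share 69.1%, 70.2% and 55.5%. Of the 8 monocytic markers CD4 and FCGR1A fell and none rose (limma, adjusted p under 0.05), where 3.4% and 0.851% of all tested genes did. At an unadjusted p under 0.05 limma had 3 lower and 1 higher, LYZ, where 11.0% and 6.17% of all tested genes were. A negative fold change was found in 6 of the 8 markers and in 10179 of the 19398 genes tested. The part of these markers in the results below was not tested. Their summed level was 58189 to 58575 normalized reads in the non-targeting group and 58060.2 to 58954 in the knockdown group, a sum that rests mostly on LYZ, at means of 37154 and 39924. Of the 18 markers of lymphocytes, erythroid cells and megakaryocytes, epithelium and fibroblasts, 5 were tested and none passed the threshold by limma, edgeR or DESeq2, 0 also at an unadjusted p under 0.05. These are bulk samples, in which fewer cells of a type and less RNA per cell cannot be told apart.

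The promoters of some of these genes carry short sequences that bind the factors of this pathway. These sequences are shown because they are the regulatory feature that the members are best known for. The ER stress response element (ERSE), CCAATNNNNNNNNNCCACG, is bound by NF-Y at its CCAAT part and by ATF6 or XBP1 at its CCACG part, and ERSE-II is ATTGGNCCACG. Both strands were searched from 250 bases before to 50 bases after each RefSeq start (GRCh38.p14), and all 10 genes matched, with 11 promoters because XBP1 has 2. The ERSE letters were present for HSPA5, HSP90B1 and XBP1, against 0.0769% of all 35116 promoters of the same length, and the ERSE-II letters for HERPUD1 and SDF2L1, against 0.0541%. Because the members were already known for these elements, these shares are no test. HSP90B1 held 2 matches, 194 and 89 bases before its start. TGACGTGG, a form of the XBP1-binding UPR element, was in no member's promoter and in 0.729% of all. The windows below run 5′ to 3′ on the gene's strand and end before the start site, with the fixed letters of each match in capitals. In the second match of HSP90B1 and in SDF2L1 the element is on the opposite strand and so reads as its reverse complement.
HSPA5 (chr9:125241351-125241449, minus strand): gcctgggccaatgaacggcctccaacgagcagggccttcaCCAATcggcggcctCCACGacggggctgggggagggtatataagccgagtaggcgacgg
HSP90B1 (chr12:103930176-103930379, plus strand): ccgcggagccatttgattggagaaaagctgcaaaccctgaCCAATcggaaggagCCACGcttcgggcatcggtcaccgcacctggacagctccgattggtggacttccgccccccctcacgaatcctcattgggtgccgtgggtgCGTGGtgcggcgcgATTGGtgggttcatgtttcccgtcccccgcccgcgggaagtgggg
XBP1 (chr22:28800570-28800661, minus strand): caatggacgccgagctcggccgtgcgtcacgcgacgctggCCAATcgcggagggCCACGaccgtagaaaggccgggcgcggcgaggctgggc
HERPUD1 (chr16:56931985-56932075, plus strand): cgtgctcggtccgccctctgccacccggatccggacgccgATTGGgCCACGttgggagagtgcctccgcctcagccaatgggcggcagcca
SDF2L1 (chr22:21642074-21642164, plus strand): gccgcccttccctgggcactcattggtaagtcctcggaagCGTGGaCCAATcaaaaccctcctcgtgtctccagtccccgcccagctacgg

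Among the 10 genes EDEM1, XBP1 and SDF2L1 fell in the knockdown and none rose (limma, Benjamini-Hochberg adjusted p under 0.05 over all genes tested). At an unadjusted p under 0.05 there were 4 lower and 0 higher, where 11.0% and 6.17% of all tested genes were, and edgeR and DESeq2 also called 0 higher. At the adjusted threshold 3 of 10 were lower, where 3.4% of all tested genes were lower, and 0 of 10 higher, where 0.851% were higher. The members were chosen with earlier results of these data known, so these shares are no test of the group. Relative to the non-targeting mean, EDEM1 fell by 16.2%, SDF2L1 fell by 14.6% and XBP1 fell by 14.1%. The median log2 fold change of the 10 was -0.04, with a range of -0.26 to 0.08, against -0.01 for all genes tested. Both knockdown values lay below both non-targeting values for 5 members, where 25.1% of all tested genes did so, and above them for 2 members, where 21.6% did so. Without non-targeting library 2 no member passed the threshold. With any other library left out 3 did, the same genes without non-targeting library 1 or knockdown library 1, and EDEM1, XBP1 and HSPA5 without knockdown library 2. The 3 genes differ in their promoter letters, since in the windows searched XBP1 holds an ERSE, SDF2L1 an ERSE-II and EDEM1 an exact match to neither. HSPA5 and HSP90B1, with an ERSE, and HERPUD1, with an ERSE-II, did not pass the threshold. A link between these letters and the changes was not tested.

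**Figure D1:**
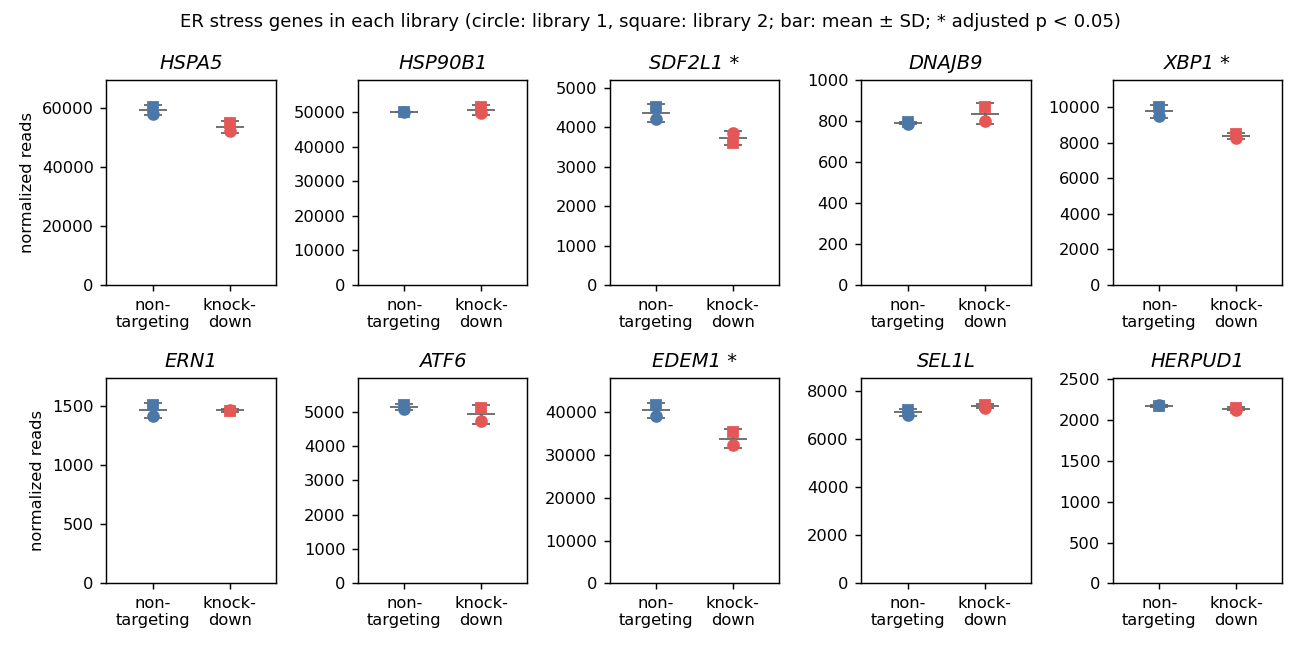
Normalized reads (y axis, from 0) of each of the 10 genes in the 2 non-targeting (blue) and 2 knockdown (red) libraries, with the mean and SD of each group. EDEM1, XBP1 and SDF2L1, marked with an asterisk, have both knockdown points below both non-targeting points, while HSP90B1 sits at about the same height in all 4 libraries.

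HSPA5 encodes BiP, the Hsp70 chaperone of the ER, which binds unfolded chains and also holds the stress sensors inactive (ENSG00000044574, chromosome 9, 125234853 to 125241330, minus strand, GRCh38). It had 57839 and 60340.7 normalized reads in the non-targeting libraries against 51940 and 54746 in the knockdown, so the groups did not overlap. The mean went from 59089.9 ± 1769 (SD, n = 2) to 53343 ± 1984, and this log2 fold change of -0.15 ± 0.05 (SE) missed the threshold over all genes (limma, adjusted p = 0.108). The 95% interval of the fold change, which is not adjusted for the number of genes, ran from -0.25 to -0.04. HSPA5 passed the threshold with robust empirical Bayes (adjusted p = 0.0407) and without knockdown library 2 (adjusted p = 0.0186). Its fold change was -0.09 with the same total in every library (adjusted p = 0.283) and -0.039 after quantile normalization (adjusted p = 0.667).

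HSP90B1 encodes GRP94, the Hsp90 chaperone of the ER, which folds integrins and Toll-like receptors (ENSG00000166598, chromosome 12, 103930107 to 103953645, plus strand). It had 49940.4 and 50115 normalized reads in the non-targeting libraries against 49675 and 51626 in the knockdown libraries. The knockdown values lay on either side of the non-targeting pair. The log2 fold change was 0.02 ± 0.05 (limma, adjusted p = 0.902), with a 95% interval of -0.08 to 0.12. Without knockdown library 2 its sign turned, at -0.010. The processed pseudogenes HSP90B2P and HSP90B3P, which carry near copies of its sequence, were at 61.5 to 85.6 and 13.4 to 21.1 normalized reads, far under the parent gene. On the opposite strand UQCC6 overlaps HSP90B1 over 3444 bases and TTC41P over 105, at 257.8 to 281.4 and 53.8 to 63.9 normalized reads. Reads in these overlaps cannot be assigned, since the strand setting of the counting is not given.

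SDF2L1 is a luminal protein that works with the J-domain co-chaperones of BiP (ENSG00000128228, chromosome 22, 21642261 to 21644298, plus strand). It had 4198 and 4522 normalized reads in the non-targeting libraries against 3852 and 3591 in the knockdown. The groups did not overlap, and knockdown library 2 was the lower one, unlike for HSPA5, XBP1 and EDEM1. SDF2L1 fell from a mean of 4360.0 ± 229.7 (SD, n = 2) to one of 3722 ± 184, and its log2 fold change was -0.23 ± 0.06 (SE; limma, adjusted p = 0.0235). Of the 3 calls it was the least stable: it ended without non-targeting library 2 (adjusted p = 0.312) and also without knockdown library 2 (0.0766), with the same total in every library (0.129), after quantile normalization (0.125) and in DESeq2 on the recovered reads (0.0648).

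DNAJB9 encodes ERdj4, a J-domain co-chaperone that brings BiP to IRE1 and represses it (ENSG00000128590, chromosome 7, 108569568 to 108574850, plus strand). Its values were 786 and 794 normalized reads in the non-targeting libraries against 799.8 and 871 in the knockdown. Both knockdown values were above the non-targeting pair, library 1 by a small margin. The log2 fold change was 0.08 ± 0.08, not past the threshold (limma, adjusted p = 0.667), with a 95% interval of -0.08 to 0.24. Its first 183 bases overlap THAP5 and its first 99 overlap PNPLA8, both on the opposite strand, and reads there cannot be assigned, since no source used here gives the strand setting of the counting.

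Among the sensors and XBP1, the call was that of XBP1. This gene, the transcription factor downstream of IRE1, lies on chromosome 22 (ENSG00000100219, 28794555 to 28800597, minus strand). It had 9475 and 10020.4 normalized reads in the non-targeting libraries against 8247 and 8496 in the knockdown, with no overlap between the groups. XBP1 fell from a mean of 9747 ± 386 (SD, n = 2) to one of 8371 ± 176, and its log2 fold change was -0.22 ± 0.05 (SE; limma, adjusted p = 0.0129). The call ended without non-targeting library 2 (adjusted p = 0.245), with the same total in every library (0.0783) and after quantile normalization (0.0770). A count per gene does not separate the spliced from the unspliced form of the mRNA, so the activity of IRE1 on XBP1 was not measured.

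ERN1, which encodes IRE1 itself, lies on chromosome 17 (ENSG00000178607, 64039142 to 64130819, minus strand). It had 1419 and 1513 normalized reads in the non-targeting libraries, and both knockdown values, 1472 and 1459, fell between them. Its log2 fold change was 0.00 ± 0.07 (limma, adjusted p = 0.9999), with a 95% interval of -0.14 to 0.14. ATF6 lies on chromosome 1 (ENSG00000118217, 161766294 to 161964070, plus strand) and had 5078 and 5197 normalized reads against 4725 and 5111. Knockdown library 1 was below the non-targeting pair and knockdown library 2 between them. The log2 fold change of ATF6 was -0.06 ± 0.05 (limma, adjusted p = 0.604; 95% interval -0.18 to 0.05).

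EDEM1 showed the largest change of the 10. It encodes a mannosidase-like lectin that picks misfolded glycoproteins out of the folding cycle for degradation (ENSG00000134109, chromosome 3, 5187646 to 5219957, plus strand). It had 38989.9 and 41609 normalized reads in the non-targeting libraries against 32243 and 35298 in the knockdown. The lower non-targeting value stood above the higher knockdown value, and knockdown library 1 was the lowest. EDEM1 fell from a mean of 40299.7 ± 1852 (SD, n = 2) to one of 33771 ± 2161, and its log2 fold change was -0.26 ± 0.05 (SE; limma, adjusted p = 0.00542). The call ended without non-targeting library 2 (-0.21, adjusted p = 0.152). The fold change was -0.32 without knockdown library 2 and -0.19 without knockdown library 1, past the threshold in both cases. An antisense transcript overlapping the first 653 bases of EDEM1 (ENSG00000268509) was at 18.2 to 32.7 normalized reads.

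SEL1L encodes the adaptor of the HRD1 ubiquitin ligase, through which most luminal clients of the degradation pathway pass (ENSG00000071537, chromosome 14, 81471549 to 81533861, minus strand). It had 6998 and 7210.3 normalized reads in the non-targeting libraries against 7299 and 7409 in the knockdown. Both knockdown values were above the non-targeting pair, but the difference missed the threshold (limma, log2 fold change 0.05 ± 0.05 SE, adjusted p = 0.675; 95% interval -0.05 to 0.15). HERPUD1 encodes a membrane protein with a ubiquitin-like domain that joins the same ligase complex (ENSG00000051108, chromosome 16, 56932048 to 56944863, plus strand). It had 2184 and 2167 normalized reads against 2124 and 2151, a separation without overlap but of very small size. The log2 fold change of HERPUD1 was -0.03 ± 0.06 (limma, adjusted p = 0.882; 95% interval -0.15 to 0.10), and it turned to 0.032 with the same total in every library and to 0.0077 after quantile normalization.

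**Figure D2:**
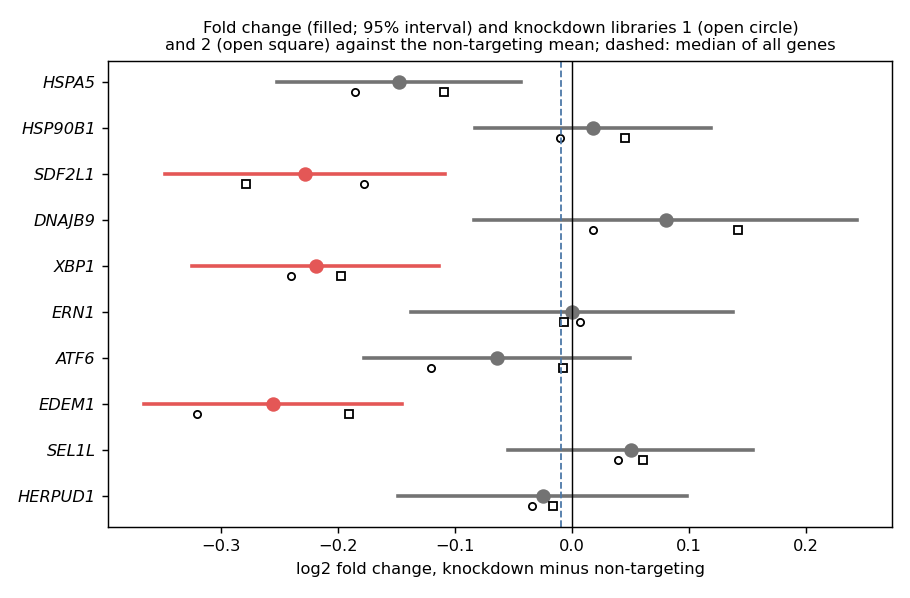
Log2 fold change, knockdown minus non-targeting (x axis), of each gene with its 95% interval from limma, unadjusted for the number of genes; red marks an adjusted p under 0.05. Open symbols give each knockdown library against the non-targeting mean: knockdown library 1 lay lower than library 2 for HSPA5, XBP1 and EDEM1, and higher for SDF2L1.

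Ratios of 2 genes within a library do not change when each library is scaled by 1 factor, though quantile normalization can change them. The ratio of HSPA5 to HSP90B1 was 1.16 and 1.20 in the non-targeting group against 1.05 and 1.06 in the knockdown. EDEM1 to SEL1L was 5.57 and 5.77 against 4.42 and 4.76. XBP1 to ERN1 was 6.68 and 6.62 against 5.60 and 5.82, and SDF2L1 to DNAJB9 was 5.34 and 5.70 against 4.82 and 4.12. In each of these 4 ratios the first gene was lower against the second in both knockdown libraries. HSPA5 to EDEM1 went the other way, at 1.48 and 1.45 in the non-targeting group against 1.61 and 1.55 in the knockdown. The groups did not overlap in any of 8 such ratios. These were picked with the values of the members known, so their separation restates those values and is no separate evidence. Ratios of other genes were not computed. With 2 libraries a group the exact two-sided permutation test cannot give less than 0.333, the value it gave for each.

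Compared per kilobase of exon (the union of all exons in GENCODE 29), the order of the 10 levels was the same in all 4 libraries. In the non-targeting libraries HSPA5 led with 15120.2 normalized reads per kilobase, followed by HSP90B1 with 10656, EDEM1 with 5963, SDF2L1 with 3967 and XBP1 with 3219. SEL1L at 743, ATF6 at 651, HERPUD1 at 422, DNAJB9 at 278 and ERN1 at 135 made up the lower end. The degradation lectin EDEM1 thus stood 8.02-fold above SEL1L and 14.1-fold above HERPUD1 per kilobase. These folds depend on the union lengths, 6758, 9559 and 5155 bases for EDEM1, SEL1L and HERPUD1. A union can be longer than the transcript expressed, which lowers the level per kilobase. HSPA5, HSP90B1 and EDEM1 held 82.4% to 83.0% of the reads of the 10 in each library, and the 10 together took 0.349% to 0.376% of all gene reads.

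The wider pathway was described by 7 lists of genes. These lists too were chosen with earlier results of these data known, so the shares given for them are no test of a list. Of 29 tested ER chaperones and folding enzymes, 2 fell and none rose (limma, adjusted p under 0.05), where 3.4% and 0.851% of all tested genes did. The median log2 fold change of the 29 was -0.07, against -0.01 for all genes tested. At an unadjusted p under 0.05 limma had 9 lower and 1 higher, where 11.0% and 6.17% of all tested genes were. SERPINH1, the collagen chaperone HSP47, fell by 0.25 on the log2 scale (adjusted p = 0.00825), and SIL1, which exchanges the nucleotide of BiP, fell by 0.25 (adjusted p = 0.0126). Both calls ended without non-targeting library 2 (adjusted p = 0.0519 and 0.164), and that of SERPINH1 also without non-targeting library 1 (0.133). In 15 of the 29 both knockdown values lay below both non-targeting values, and in 1 above, where 25.1% and 21.6% of all tested genes did so. Of 26 tested ER-associated degradation genes beside the 3 above, none passed the threshold by limma, edgeR or DESeq2, with 4 lower and 1 higher at an unadjusted p under 0.05 by limma, where 11.0% and 6.17% of all tested genes were (median -0.04). Those with the most normalized reads, not corrected for gene length, were the extraction ATPase VCP and EDEM3, a mannosidase of the EDEM family. VCP was at -0.08 (limma, adjusted p = 0.403) and EDEM3 at -0.02 (adjusted p = 0.881).

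Of 16 tested sensors and regulators of the response, 1 fell and none rose (limma, adjusted p under 0.05), where 3.4% and 0.851% of all tested genes did. The median of the 16 was -0.05, and DESeq2 called 0. At an unadjusted p under 0.05 limma had 2 lower and 0 higher, where 11.0% and 6.17% of all tested genes were. The called gene was RTCB, the ligase that rejoins the XBP1 mRNA, which fell by 0.21 on the log2 scale (limma, adjusted p = 0.0303). RTCB had 7274 and 7921 normalized reads in the non-targeting libraries against 6317 and 6811 in the knockdown. Its call ended without non-targeting library 2 (adjusted p = 0.401) or knockdown library 1 (0.105). Of 11 tested genes of the PERK branch and ATF4 targets, 4 fell and none rose (median -0.16), while edgeR called 2 lower and DESeq2 1. By limma 3.4% of all tested genes were lower and 0.851% higher, and over all genes edgeR called 556 lower and DESeq2 379. At an unadjusted p under 0.05 limma had 6 of the 11 lower and 0 higher, where 11.0% and 6.17% of all tested genes were. The transcription factor ATF3 fell by 0.42 (adjusted p = 0.0203), PPP1R15B, a subunit of the phosphatase that restores translation, by 0.19 (0.0264), the transcription factor CEBPB by 0.27 (0.0484) and the lipoprotein receptor VLDLR by 0.17 (0.0488). The calls of these 4 genes each ended without non-targeting library 1, with adjusted p from 0.155 to 0.519. Without non-targeting library 2 those of ATF3 (0.0636), PPP1R15B (0.181) and VLDLR (0.241) ended, without knockdown library 1 the same 3 (0.0999, 0.0534 and 0.0658), and without knockdown library 2 that of CEBPB (-0.15, adjusted p = 0.265). With the same total in every library or after quantile normalization, none of the 7 genes called in these lists passed the threshold.

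None of the 30 genes of ER translocation and glycosylation, 25 of ER to Golgi transport and 18 cytosolic and mitochondrial chaperones passed the adjusted threshold by limma, edgeR or DESeq2. At an unadjusted p under 0.05 limma had 3, 1 and 2 lower and 1, 0 and 0 higher, where 11.0% and 6.17% of all tested genes were. Their median log2 fold changes were -0.01, -0.02 and -0.01. One gene is given for each list, that with the most normalized reads, not corrected for gene length. These were SEC61A1, the channel through which chains enter the ER, at -0.09 (limma, adjusted p = 0.380), the coatomer subunit COPA at -0.02 (0.873) and the cytosolic chaperone HSP90AB1 at -0.04 (0.761). HSPA8, the cytosolic relative of BiP, was at -0.05 (limma, adjusted p = 0.689). COPA, HSP90AB1, HSPA8 and EDEM3 turned to a positive sign with the same total in every library, after quantile normalization and without knockdown library 1. The lists were not compared with each other by a test.

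**Figure D3:**
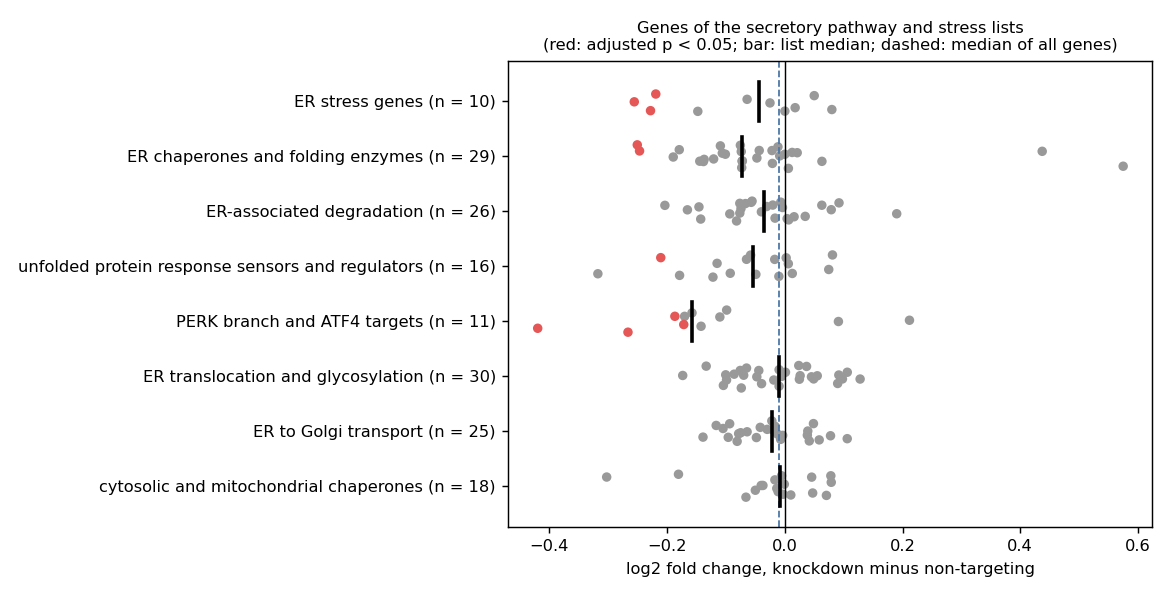
Log2 fold change, knockdown minus non-targeting (x axis), of each tested gene in the 10-gene group and in the 7 wider lists, with the list median as a bar; red marks an adjusted p under 0.05. Red points appear in the 10 genes, the chaperones, the regulators and the PERK branch, all left of 0.

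The genes with the most similar profiles over the 4 libraries were sought among 639 called genes with a mean of at least 500, by the Euclidean distance of log2 values after subtraction of the non-targeting mean. For XBP1 these were MGAT2 (distance 0.0103), SLC22A16 (0.0229) and NECAP2 (0.0268). For EDEM1 they were TMEM268 (0.0133), PNPT1 (0.0224) and NCOA7 (0.0232), and for SDF2L1 MVD (0.0436), CD82 (0.0544) and SIVA1 (0.0608). With 4 libraries such distances describe these samples and carry no test.

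**Figure D4:**
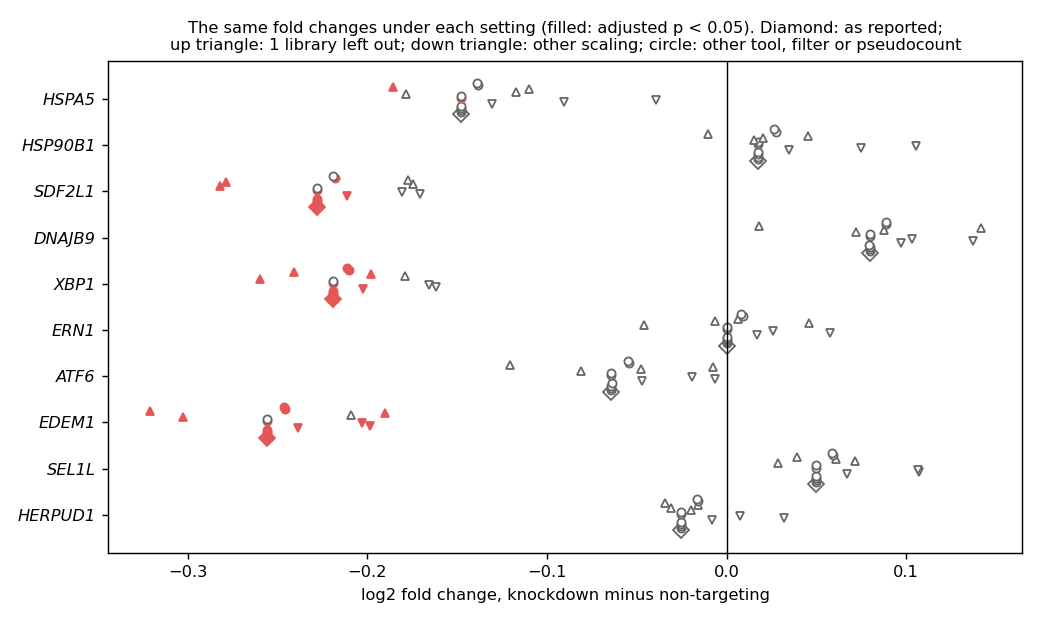
Log2 fold change of each gene (x axis) as reported and under 15 alternative settings; filled symbols mark an adjusted p under 0.05. EDEM1, XBP1 and SDF2L1 stay left of 0 in all 15, with calls in 13, 11 and 9 of them, while HSPA5 stays left of 0 with calls in 2.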

How the data were processed

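The deposited values are a normalized signal, which the authors obtained by dividing each library's counts by a size factor of its own, as the values themselves show: every value was a whole multiple of 1 step within a tolerance of 0.01 reads (100.0% of values), and recovered reads served only the count-based alternatives. STAR 2.5.1b, DESeq2 and GRCh38 are named without roles, per the submitters' processing notes, and the counter, annotation and strand setting are not stated in what was used here. The table holds genes with at least 2 reads in knockdown library 1, so genes lost from that library are not analysed here. A table of Ensembl identifiers gave the symbols (26579 matched), GENCODE 29 the positions and exon lengths on GRCh38 (26077 matched), and RefSeq the promoters.

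The test was limma (version 3.58.1, R 4.3.3) on log2 values after adding 1, with trended empirical Bayes variances. Genes averaging 10 or more entered, and p-values were adjusted over all of these by Benjamini-Hochberg. Fold changes on this scale are slightly understated for low genes. Alternatives were other filters, pseudocounts, scalings, empirical Bayes settings and thresholds, each library left out (the lone sample is then assumed to vary like the other group), edgeR 4.0.16 (biological coefficient of variation 4.47%) and DESeq2 1.42.0. The members and lists were chosen with earlier results of these data known. Named beside the members were the target, the 3 nearest profiles of each called member and, in each list, up to 4 called genes with the smallest p. In lists with no called gene, some of the 2 genes with the most normalized reads, not corrected for gene length, were named. Genes that overlap a member and pseudogene copies of members were named after their values were seen.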

Additional observations from a re-analysis of the deposited data

How the results depend on the processing

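No paired analysis was possible because the knockdown columns carry replicate numbers that match the labels only in part, so the groups share fewer than 2 numbers. Leaving out 1 library gave 334 to 960 lower and 87 to 309 higher genes and 0 to 3 lower members, with 0 only without non-targeting library 2. The higher genes numbered 87 and 90 without non-targeting libraries 1 and 2 and 309 without knockdown library 2, and the lower 334 without non-targeting library 1. Lower genes numbered 293 with the same total, 334 after quantile normalization and 379 with DESeq2, and higher genes 290 with the same median and 66 with DESeq2. An adjusted p under 0.01 left 337 lower and 46 higher genes and 1 lower member, EDEM1, and one under 0.1 gave 344 higher genes. With the same total or quantile normalization 1 member was lower, EDEM1. Limma without a mean-variance trend called 0 genes in either direction and 0 members (2337 genes had p under 0.05 before adjustment), and edgeR gave 556 lower and 159 higher genes. The causes were not tested.

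Over the leave-one-out fits the log2 fold change ranged from -0.19 to -0.11 for HSPA5, -0.26 to -0.18 for XBP1, -0.32 to -0.19 for EDEM1, -0.28 to -0.17 for SDF2L1, -0.010 to 0.045 for HSP90B1 and -0.046 to 0.046 for ERN1. HSPA5 passed with robust empirical Bayes (-0.15) and shrank to -0.09 with the same total and -0.039 after quantile normalization. XBP1 missed the threshold with the same total (-0.16), quantile normalization (-0.17) and no trend (-0.22), EDEM1 with no trend (-0.26), and SDF2L1 with the same total (-0.17), quantile normalization (-0.18), no trend (-0.23) and DESeq2 (-0.22). HERPUD1 turned positive with the same total (0.032) and quantile normalization (0.0077). ATF6, DNAJB9 and SEL1L kept their sign and missed the threshold in all 15 alternatives. The 7 called genes of the wider lists kept a negative sign in all 15 and were called in 5 (VLDLR) to 11 (SIL1) of them. With the same total and quantile normalization EDEM3 turned to 0.037 and 0.046, COPA to 0.035 and 0.051, HSP90AB1 to 0.017 and 0.015, and HSPA8 to 0.0074 and 0.026. Leaving out 1 library gave -0.045 to 0.0042, -0.060 to 0.016, -0.084 to 0.0038 and -0.10 to 0.00051 for these 4, above 0 without knockdown library 1. Depth limits what can be said of the target, with 12 to 24 reads a library, while each member had at least 764.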
